A study of Mus musculus with 16 samples.

Results

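Foxp3 and its neighbours on the mouse X chromosome were followed across CD4 T cells of 2 kinds and 2 genotypes. The set holds 10 of the 17097 genes with a probe set of their own, which are Foxp3, Flicr, Ppp1r3f, Ccdc22, Plp2, Gpkow, Wdr45, Praf2, Tfe3 and Gripap1. Its members were chosen by gene symbol, as every probe set that the platform annotation gives to one of these genes. This gave 15 of the 45141 probe sets, of which 2 (1447759_PM_x_at and 1455805_PM_x_at) are listed for both Ccdc22 and Foxp3 and are called here by their IDs. A probe set was tested if its log2 value was above 5 on at least 4 of the 16 arrays, which 14 of the 15 met, among 18621 tested in all.

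Tregs, the regulatory subset of CD4 T cells, and Tconv, the conventional CD4 T cells, were sorted from the spleens of NOD/LtJ mice aged 6 weeks, a strain that develops autoimmune diabetes, and profiled on Affymetrix arrays with 4 arrays in each of 4 groups. KI Tregs and KI Tconv came from mice with the allele Foxp3tm2Ayr, which the labels also call Foxp3gfp and in which green fluorescent protein (GFP) is fused to Foxp3 at its own locus. WT Tregs and WT Tconv came from mice with Tg(Foxp3-EGFP/cre)1aJbs, a transgene in which the Foxp3 gene's control regions drive EGFP joined to the recombinase Cre. Every KI array thus carries the knock-in and every WT array the transgene, so that an effect of the one and an effect of the other cannot be told apart. This transgene was built from a large genomic clone. Which genes besides Foxp3 the clone holds was not given in the sources used here, and whether the member probe sets also read transcripts of the transgene was not tested. The sort is described alike for all samples, as CD3 and CD4 positive and GFP negative, and how the Tregs were gated is not clear from this. Whether the arrays within a group stem from different mice is not in the labels, and p-values then measure only the spread between these samples, which may be technical. In such bulk samples fewer cells of a type and less RNA per cell cannot be told apart.

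Foxp3 encodes the forkhead transcription factor on which the identity and suppressive function of Tregs depend, and mutations of it cause fatal autoimmunity in mice. Flicr is a long noncoding RNA transcribed from the region upstream of Foxp3 and reported to tune its expression in mouse Tregs. Ccdc22 encodes a subunit of a complex that recycles membrane proteins from endosomes, and Ppp1r3f a subunit that directs protein phosphatase 1 to glycogen. In the RefSeq gene table (GRCm38.p6) the order is Ppp1r3f, Flicr, Foxp3, Ccdc22, then, with some genes between them, Plp2, Gpkow, Wdr45, Praf2, Tfe3 and Gripap1. The first 4 genes overlap as a chain. Ppp1r3f and Flicr overlap at their 5′ ends on opposite strands, Flicr runs into Foxp3 on the same strand, and Foxp3 and Ccdc22 overlap at their 3′ ends on opposite strands. The genome build of the array annotation was not given in the sources used here, so no probe positions are printed.

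The promoters of this chain are shown because the genotype differences that passed, described below, came from its probe sets. Within the chain, Flicr passed in neither cell type and Foxp3 in Tconv only. Each window runs from 250 bases before to 50 bases after the annotated RefSeq start on GRCm38.p6, written 5′ to 3′ on the gene's strand. Capitals mark TATAAA (the TATA box) and CCAAT on either strand, so that TTTATA and ATTGG are also in capitals, and no marked stretches overlap. The windows lie at chrX:7574232-7574531 on the minus strand (Ppp1r3f), chrX:7573350-7573649 on the plus strand (Flicr), chrX:7579426-7579725 on the plus strand (Foxp3, its first annotated start) and chrX:7605371-7605670 on the minus strand (Ccdc22).
Ppp1r3f: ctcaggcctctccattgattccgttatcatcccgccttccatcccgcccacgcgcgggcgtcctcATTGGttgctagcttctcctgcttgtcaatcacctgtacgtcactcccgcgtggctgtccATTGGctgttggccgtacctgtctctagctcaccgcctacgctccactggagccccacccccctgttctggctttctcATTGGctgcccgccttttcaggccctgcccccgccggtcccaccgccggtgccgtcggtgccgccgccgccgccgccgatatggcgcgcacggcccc
Flicr: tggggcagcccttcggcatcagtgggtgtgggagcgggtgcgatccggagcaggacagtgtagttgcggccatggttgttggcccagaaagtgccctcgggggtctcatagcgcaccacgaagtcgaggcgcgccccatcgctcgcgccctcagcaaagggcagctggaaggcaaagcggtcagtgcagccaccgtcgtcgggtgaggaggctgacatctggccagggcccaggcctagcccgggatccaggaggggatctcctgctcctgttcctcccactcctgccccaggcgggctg
Foxp3: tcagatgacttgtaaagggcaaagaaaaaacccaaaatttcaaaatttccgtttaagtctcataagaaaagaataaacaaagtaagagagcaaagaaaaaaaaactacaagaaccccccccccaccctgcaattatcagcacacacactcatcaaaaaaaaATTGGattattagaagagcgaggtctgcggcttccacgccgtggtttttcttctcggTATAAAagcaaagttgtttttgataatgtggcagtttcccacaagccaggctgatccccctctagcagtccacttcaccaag
Ccdc22: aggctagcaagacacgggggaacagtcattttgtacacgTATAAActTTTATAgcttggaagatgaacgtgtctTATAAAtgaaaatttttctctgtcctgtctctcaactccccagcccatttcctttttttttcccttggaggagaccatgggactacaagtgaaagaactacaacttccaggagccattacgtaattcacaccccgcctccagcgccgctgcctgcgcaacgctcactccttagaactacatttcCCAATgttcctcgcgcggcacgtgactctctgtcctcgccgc

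The 4 windows differ in base composition. The Flicr window was 67.3% GC with 20 CG dinucleotides, and the Ppp1r3f window 66.7% GC with 29. The Foxp3 window was 40.7% GC with 6 CG dinucleotides and the Ccdc22 window 48.7% with 15, beside medians of 52.7% and 7 over 32851 RefSeq windows of the same length. The Foxp3 window holds 1 TATAAA that begins 32 bases before the start, where a TATA box is usually placed, and 1 CCAAT. The Ccdc22 window holds 3 TATAAA, all at least 176 bases before the start, and Ppp1r3f holds 3 CCAAT, while neither motif is in the Flicr window. TATAAA was found in 13.6% and CCAAT in 37.4% of all windows. The forkhead motif GTAAACA, sought on both strands, is in 3.65% of all windows and in none of the 9 members with a window (Plp2 had none). These matches describe letters in the windows and are not tested sites.

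Values are on the log2 scale throughout. The array medians lay between 3.69 and 3.76, and 17581 to 17990 probe sets per array were above 5. Among the 23 nonspecific control probe sets the median was 2.60 and the maximum 4.71, so a member below about 5 lies near background and its differences are compressed there. T cell genes were present in every group (the mean of Cd3e, Cd3d, Cd3g and Cd4 ranged from 9.95 to 10.25 over arrays), as the labelled cell type requires. The mean of the 5 B cell markers measured was 4.93 to 6.20 in KI Tregs, 4.80 to 6.82 in WT Tregs, 4.58 to 6.00 in KI Tconv and 4.91 to 6.81 in WT Tconv, so their ranges overlapped between genotypes. Xist, the RNA of the inactive X chromosome, read 11.65 to 12.17 over the arrays, and 3 Y chromosome genes at most 3.08, as in female cells. Whether the KI allele lay on 1 or both X chromosomes was not tested. KI Treg array 4 was the lowest of its group in 11 of the 14 tested member probe sets. Arrays are numbered in the titles, with KI arrays at 13 to 23, WT arrays at 4 to 9 and 1 array of each group at 24 to 27. The labels do not say what the numbers stand for. Among 24 to 27 both genotypes are present, and values within these 4 arrays, 1 per group and untested, are given beside the genotype results and the larger cell type results. The KI Treg array among them, number 26, is KI Treg array 4, so every KI Treg value from these arrays rests on that array. It was low for most member probe sets, but the highest of its group for Gpkow and 1447759_PM_x_at.

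Foxp3 separated the cell types on every array and hardly differed between the genotypes in Tregs, whereas in Tconv it lay lower in KI. Its own probe set (1420765_PM_a_at) read 9.92, 10.05, 9.69 and 9.39 in KI Tregs, against 9.74, 10.16, 9.81 and 9.72 in WT Tregs. In KI Tconv it read 3.71, 3.57, 3.71 and 3.78, against 4.24, 4.96, 4.51 and 4.80 in WT Tconv. The Treg groups overlapped, each KI Tconv array lay below each WT Tconv array, and both Tconv groups lay near background. The group means were 9.76 ± 0.29 in KI Tregs and 9.86 ± 0.20 in WT Tregs, which did not differ beyond their spread, and below them 3.69 ± 0.09 in KI Tconv and 4.63 ± 0.32 in WT Tconv, with KI Tconv the lowest of the 4 groups (SD, n = 4 each).

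Differences were tested with limma, fitted on the 16 arrays over all tested probe sets, two-sided and with Benjamini-Hochberg adjusted p-values and a threshold of 0.05. In Tregs the KI minus WT difference of Foxp3 was -0.09 on the log2 scale (SE 0.158, 95% interval -0.43 to 0.24, limma adjusted p = 0.80). The interval thus leaves room for a change of either sign and does not show that the genotypes are alike. Among arrays 24 to 27 this difference was -0.32. In Tconv the difference was -0.93 (SE 0.158, interval -1.27 to -0.60, limma adjusted p = 0.0206), lower in KI. No fold is given for it, since the means of both Tconv groups lay below the highest nonspecific control (4.71). The difference between these genotype differences, tested as an interaction, was 0.84 (SE 0.224, limma adjusted p = 0.186) and did not pass. Since GFP under Foxp3 control was part of the sort, the Foxp3 gap between cell types serves as a check of the labels. It was 6.07 between KI Tregs and KI Tconv and 5.23 between WT Tregs and WT Tconv, and 5.62 and 4.92 in the same order among arrays 24 to 27.

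The Tconv difference in Foxp3 kept its call in 11 of the 16 single omissions, and lost it without KI Tconv 1, 2 or 3 or WT Tconv 2 or 4 (adjusted p of 0.061 to 0.114), with values between -1.06 and -0.82 in all 16. It also lost its call when only the KI and WT Tconv arrays entered the fit (limma adjusted p = 0.238) and with 3 blocks of array numbers (-1.09, limma adjusted p = 0.570). Within the arrays numbered 24 to 27 it was -1.02. The means of the other genes in the Treg marker list were also lower in KI Tconv, though for most the difference did not pass. Of the 6 further Treg markers, Ikzf2 (-0.83, limma adjusted p = 1.80e-05) and Nrp1 (-0.77, limma adjusted p = 0.0160) also passed lower in KI Tconv, and Il2ra (-0.10), Ctla4 (-0.19), Ikzf4 (-0.35) and Tnfrsf18 (-0.03) did not pass. The sum of the log2 values of these 6 markers ran from 39.5 to 40.2 over KI Tconv arrays and from 41.4 to 42.6 over WT Tconv arrays, without overlap, beside 64.1 to 64.8 in KI Tregs and 63.1 to 64.2 in WT Tregs. Ikzf2 and Nrp1 had the largest differences of the 6, so the sum leans on them. The part of these 6 markers in the Foxp3 result was not tested.

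**Figure D1:**
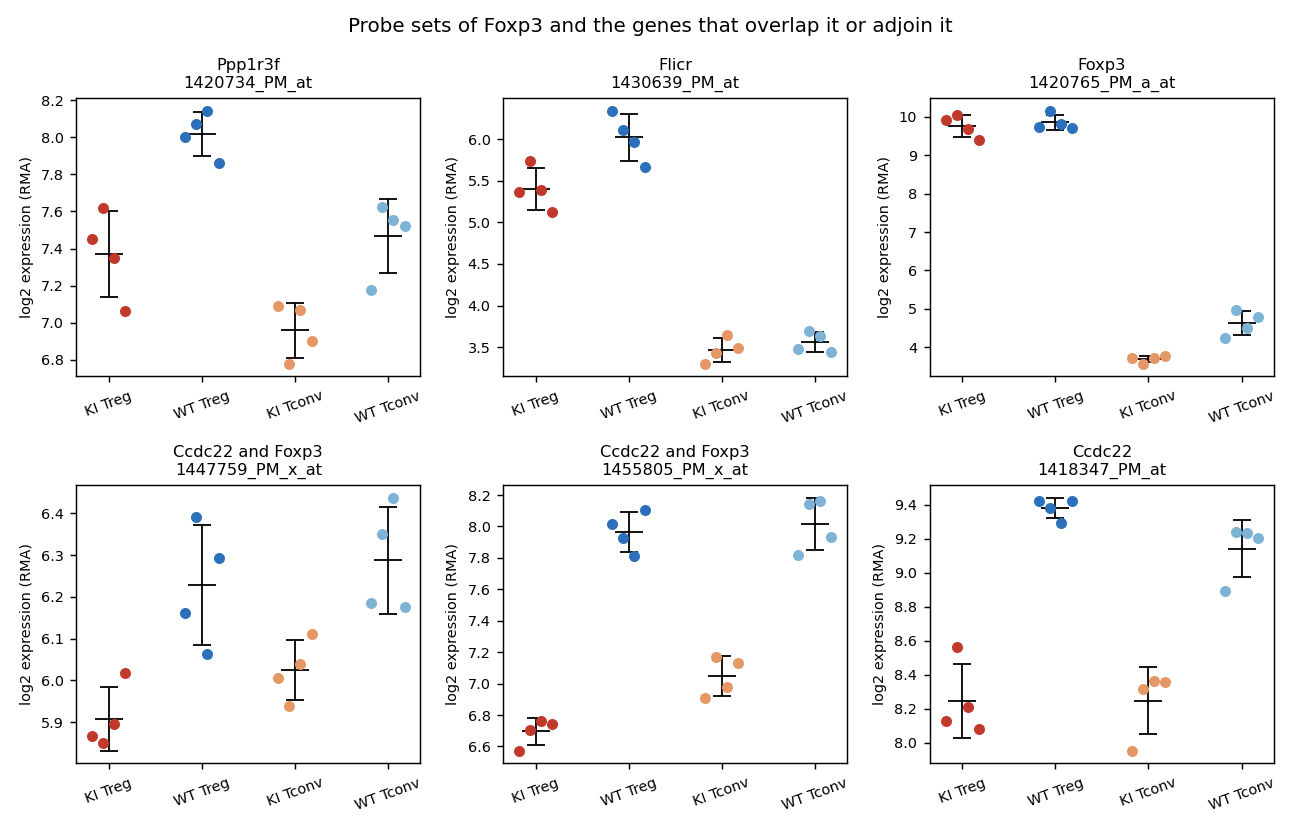
Log2 expression (RMA, vertical axes, each panel on its own scale) of the probe sets of Ppp1r3f, Flicr, Foxp3 and Ccdc22 and of the 2 sets listed for both Ccdc22 and Foxp3, by group (horizontal axes). Points are arrays, bars the mean and SD of 4 arrays; in the Ccdc22 panel the KI arrays sit between 7.95 and 8.57 and the WT arrays between 8.89 and 9.42, while in the Foxp3 panel the Treg groups overlap.

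Ccdc22, whose 3′ end overlaps that of Foxp3, was lower in KI in both cell types. Its probe set (1418347_PM_at) read 8.13, 8.57, 8.21 and 8.08 in KI Tregs, against 9.42, 9.38, 9.29 and 9.42 in WT Tregs. In KI Tconv it read 7.95, 8.32, 8.36 and 8.36, against 8.89, 9.24, 9.23 and 9.20 in WT Tconv. Every KI array of either cell type lay below every WT array of either cell type. The KI minus WT difference was -1.13 in Tregs (SE 0.114, limma adjusted p = 3.81e-05), a 2.19-fold lower level. In Tconv it was -0.89 (SE 0.114, limma adjusted p = 0.00149), 1.86-fold lower. By p-value Ccdc22 ranked 10 in Tregs and 7 in Tconv among the 18621 probe sets. The genotype differences of the 2 cell types did not differ from each other by the test (interaction -0.24, interval -0.58 to 0.10, limma adjusted p = 0.868). Within the arrays numbered 24 to 27 the differences were -1.34 in Tregs and -0.84 in Tconv. With 3 blocks of array numbers in the fit, the genotype difference averaged over the cell types rests on arrays 24 to 27. The call then held in Tregs (limma adjusted p = 0.012) and not in Tconv (-0.97, limma adjusted p = 0.190).

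The 2 probe sets listed for both Ccdc22 and Foxp3 followed Ccdc22 rather than the Foxp3 probe set in their levels over the groups. In 1455805_PM_x_at the values were 6.57, 6.70, 6.76 and 6.74 in KI Tregs, against 8.01, 7.93, 7.81 and 8.11 in WT Tregs. KI Tconv had 6.91, 7.17, 6.98 and 7.13, against 7.82, 8.15, 8.16 and 7.94 in WT Tconv. Again no KI array of either cell type reached any WT array. The KI minus WT difference was -1.27 in Tregs (SE 0.097, limma adjusted p = 1.03e-06), 2.41-fold lower. In Tconv it was -0.97 (SE 0.097, limma adjusted p = 8.85e-05), 1.95-fold lower. With 3 blocks of array numbers the Treg call held (limma adjusted p = 0.0019) and the Tconv call did not (-0.93, limma adjusted p = 0.068). Within the arrays numbered 24 to 27 the differences were -1.36 in Tregs and -0.80 in Tconv. Over the 16 arrays the Pearson r of this probe set was 0.93 with Ccdc22 and -0.09 with Foxp3, given as a description, since the arrays share 4 groups.

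The dimmer set, 1447759_PM_x_at, moved less. It read 5.87, 5.85, 5.90 and 6.02 in KI Tregs, against 6.16, 6.39, 6.06 and 6.29 in WT Tregs, and 6.01, 5.94, 6.04 and 6.11 in KI Tconv, against 6.19, 6.35, 6.44 and 6.17 in WT Tconv. The genotypes did not overlap within either cell type. The differences were nevertheless small, at -0.32 in Tregs (SE 0.097, limma adjusted p = 0.114) and -0.26 in Tconv (SE 0.097, limma adjusted p = 0.877), and neither passed. Among arrays 24 to 27 they were -0.28 in Tregs and -0.06 in Tconv.

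Upstream of Foxp3, Ppp1r3f was lower in KI Tregs. The values of 1420734_PM_at were 7.45, 7.62, 7.35 and 7.07 in KI Tregs, against 8.00, 8.07, 8.14 and 7.86 in WT Tregs. In Tconv they were 7.09, 6.78, 7.07 and 6.90 in KI, against 7.17, 7.63, 7.55 and 7.52 in WT. Within each cell type the genotypes did not overlap, although WT Tconv 1 came within 0.1 of the highest KI Tconv array. The difference was -0.65 in Tregs (SE 0.123, limma adjusted p = 0.0113), 1.57-fold lower. In Tconv it was -0.51 (SE 0.123, limma adjusted p = 0.294) and did not pass. The interaction was -0.14 (limma adjusted p = 0.939), so the cell types were not shown to differ in this. Within the arrays numbered 24 to 27 the differences were -0.79 in Tregs and -0.62 in Tconv, and with 3 blocks of array numbers the Treg call was lost (-0.78, limma adjusted p = 0.128).

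Flicr was read above background in Tregs alone. Its values (1430639_PM_at) were 5.36, 5.73, 5.39 and 5.12 in KI Tregs, against 6.34, 6.11, 5.97 and 5.67 in WT Tregs, and all 8 Tconv arrays lay between 3.30 and 3.69. KI Tregs lay mostly below WT Tregs, with overlap at KI Treg 2 and WT Treg 4. The difference was -0.62 (SE 0.158, limma adjusted p = 0.0584), just short of the threshold. It passed with no variance trend (limma adjusted p = 0.039), cyclic loess (limma adjusted p = 0.0498) and 1 probe set per gene (limma adjusted p = 0.046). It also passed with 2 blocks of array numbers (limma adjusted p = 0.026) and without arrays 24 to 27 (limma adjusted p = 0.037). The call was absent with 3 blocks (-0.51, limma adjusted p = 0.694) and with only the Treg groups in the fit (limma adjusted p = 0.141). Without the filter on low values it was absent too (limma adjusted p = 0.068). The difference passed in 2 of the 16 single omissions (without KI Treg 2 or WT Treg 4), over which the adjusted p ran from 0.031 to 0.209. Within the arrays numbered 24 to 27 it was -0.54. In Tconv the difference was -0.10 (limma adjusted p = 0.964), at a level where a change could hardly be read. Together with Foxp3, Flicr is 1 of 2 member probe sets that passed the filter on low values through Tregs only, so that they had to be higher there.

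Further along the chromosome the genotype differences were smaller. Gpkow, which encodes a spliceosome protein, read 8.98, 8.89, 8.96 and 9.01 in KI Tregs, against 9.10, 9.20, 9.23 and 9.29 in WT Tregs, and 8.79, 8.85, 8.78 and 9.03 in KI Tconv, against 9.31, 9.22, 9.05 and 9.07 in WT Tconv. All KI arrays lay below the WT arrays of the same cell type. The differences of -0.24 in Tregs (SE 0.075, limma adjusted p = 0.120) and -0.30 in Tconv (SE 0.075, limma adjusted p = 0.315) did not pass. Within the arrays numbered 24 to 27 the value was -0.27 in Tregs and -0.04 in Tconv, and leaving out KI Tconv 4 gave a call (limma adjusted p = 0.042). Plp2, a membrane protein of the endoplasmic reticulum, did not pass, at 0.06 (interval -0.11 to 0.23) in Tregs and 0.02 (interval -0.15 to 0.19) in Tconv. The autophagy gene Wdr45, whose 2 probe sets differed by 0.11 and 0.19 in Tregs, did not pass either. Nor did Praf2, which encodes a membrane protein of the secretory pathway (-0.12 and -0.04 for its 2 sets in Tregs). Tfe3, a transcription factor of lysosome genes, differed by 0.22 in Tregs without passing (SE 0.111, limma adjusted p = 0.356), and Gripap1, an endosomal adaptor best studied in neurons, differed by 0.10 (limma adjusted p = 0.613). Among arrays 24 to 27 both had the other sign in Tregs (-0.13 for Tfe3 and -0.23 for Gripap1), the Praf2 sets were at -0.37 and -0.35, the Wdr45 sets at -0.26 and 0.09, and Plp2 at 0.01.

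**Figure D2:**
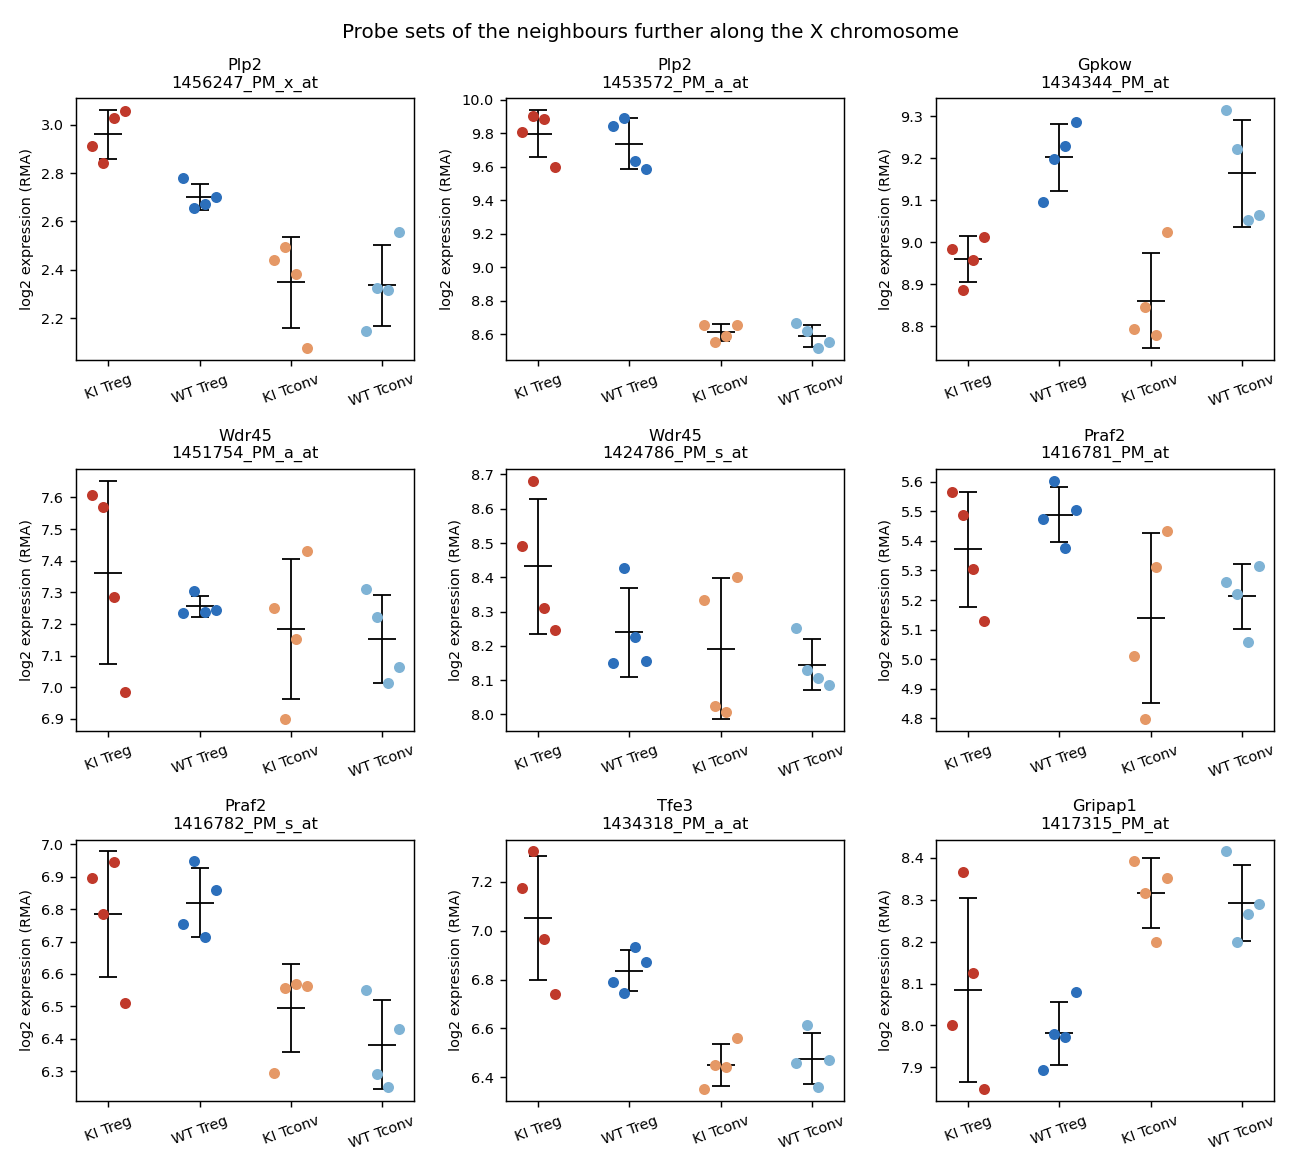
Log2 expression (RMA, vertical axes, each panel on its own scale) of the probe sets of Plp2, Gpkow, Wdr45, Praf2, Tfe3 and Gripap1 by group (horizontal axes). Points are arrays and bars the mean and SD of 4 arrays; Plp2 1453572_PM_a_at separates Tregs (9.58 to 9.90) from Tconv (8.52 to 8.67), and its other set lies near background at 2.08 to 3.06.

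Counted over the 14 tested member probe sets, 3 were lower and none higher in KI Tregs than in WT Tregs (Ppp1r3f, Ccdc22 and 1455805_PM_x_at), beside 1.51% of all tested probe sets called in either direction, 0.623% lower and 0.891% higher. In Tconv 3 were lower in KI and none higher (Foxp3, Ccdc22 and 1455805_PM_x_at), beside 0.0967% of all, or 18 probe sets, each of them lower in KI (0% were called higher). Member arrays did not overlap, with KI lower, for 5 of 14 in Tregs, beside 3.58% of all tested, and for 6 of 14 in Tconv, beside 1.18%. No member was free of overlap with KI higher, beside 4.11% of all tested in Tregs and 1.99% in Tconv. Among all probe sets 8 (0.043%) were called lower in KI in both cell types, and Ccdc22 and 1455805_PM_x_at are 2 of them. The probe sets of overlapping genes may read shared transcripts or neighbouring sequence, which was not tested, so they are not taken as independent counts. The median KI minus WT difference of the 14 members was -0.11 in Tregs and -0.08 in Tconv, against 0.01 in both for all tested probe sets. In the interaction no member passed by limma, beside 0.371% of all tested. Unadjusted p-values were under 0.05 for Foxp3 (0.0016), Flicr (0.031) and 1455805_PM_x_at (0.042), beside 7.01% of all tested.

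The wider neighbourhood gave a comparison within the same chromosome region. Within 1 Mb on each side of Foxp3, RefSeq lists 75 genes, of which 30 that are not members had a probe set here, and 14 of these, with 16 probe sets, were tested. None of the 16 passed by limma between the genotypes in Tregs (1.51% of all tested) or Tconv (0.0967%). At an unadjusted p under 0.05, 2 were higher and none lower in KI Tregs, and 2 higher and 1 lower in KI Tconv, while of the 14 members 6 were lower and none higher in each cell type. Of all tested probe sets 8.35% were higher and 7.44% lower in KI Tregs at that p, and 2.89% higher and 2.59% lower in KI Tconv. The members were chosen with earlier results of these data known, so their contrast with the other probe sets is descriptive and was not tested. The 6 members in each cell type include Ccdc22 and the 2 sets listed for both Ccdc22 and Foxp3, which are not independent counts. The median difference of the 16 other probe sets was 0.10 in Tregs and 0.12 in Tconv. Their differences ranged from -0.82 to 0.63 in Tregs and from -0.65 to 0.54 in Tconv. At the low end stood Rbm3, a cold-induced RNA binding protein with a large error (SE 0.524), and at the high end Gata1, the erythroid transcription factor (limma adjusted p = 0.0758 in Tregs). Both were chosen after their values were seen. The genes that directly follow Ccdc22, Cacna1f and Syp, were below the filter, so the nearest tested gene beyond Ccdc22 was Plp2. On the Ppp1r3f side the nearest tested gene was Clcn5, a chloride and proton exchanger, at 0.03 in Tregs and -0.03 in Tconv.

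Between the cell types the neighbours of Foxp3 did not move as a block. In KI, 6 of 14 member probe sets were higher and 1 lower in Tregs than in Tconv, beside 36.6% of all tested called in either direction (16.9% higher and 19.7% lower). In WT, 6 were higher and 1 lower, beside 28.9% (13.7% higher and 15.1% lower). The share of members called higher lay above that of all tested probe sets in both genotypes, and the share called lower lay below it. The member counts include Foxp3 and Flicr, which had to be higher, and were not tested against these shares. Plp2 (1453572_PM_a_at) had the next largest gap. Its values were 9.80, 9.90, 9.88 and 9.60 in KI Tregs, against 8.65, 8.55, 8.59 and 8.66 in KI Tconv, and 9.85, 9.89, 9.63 and 9.58 in WT Tregs, against 8.67, 8.62, 8.52 and 8.56 in WT Tconv. No Treg array came within 0.9 of a Tconv array of its genotype. The gap was 1.19 in KI (SE 0.081, limma adjusted p = 3.24e-09) and 1.15 in WT (SE 0.081, limma adjusted p = 6.91e-09), or 2.27-fold and 2.22-fold, and among arrays 24 to 27 it was 0.94 in KI and 1.03 in WT. The other Plp2 probe set (1456247_PM_x_at) lay between 2.08 and 3.06, near background, and was not tested.

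Tfe3 also stood higher in Tregs in both genotypes. It read 7.17, 7.33, 6.97 and 6.74 in KI Tregs, against 6.35, 6.45, 6.44 and 6.56 in KI Tconv, and 6.79, 6.75, 6.94 and 6.87 in WT Tregs, against 6.46, 6.61, 6.36 and 6.47 in WT Tconv. The cell types did not overlap. The differences were 0.60 in KI (SE 0.111, limma adjusted p = 0.000397) and 0.36 in WT (SE 0.111, limma adjusted p = 0.0212). Among arrays 24 to 27 the KI value was 0.18 and the WT value 0.40, and the WT call was lost on leaving out WT Treg 3 or WT Tconv 3. Ppp1r3f was higher in Tregs by 0.41 in KI (limma adjusted p = 0.0147) and 0.55 in WT (limma adjusted p = 0.00244), and the KI call was lost on leaving out KI Treg 2 or KI Tconv 2 (adjusted p of 0.052 in each case). Among arrays 24 to 27 these values were 0.17 and 0.34.

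For Praf2 the 2 probe sets gave values in the same direction, of which 1 passed. In 1416782_PM_s_at the Treg minus Tconv difference was 0.29 in KI (limma adjusted p = 0.0493) and 0.44 in WT (limma adjusted p = 0.00586). In 1416781_PM_at it was 0.23 in KI and 0.28 in WT, neither past the threshold. The KI call of Praf2 was lost without the filter on low values and in 14 of the 16 single omissions, and within the arrays numbered 24 to 27 its sign turned (-0.05). Gripap1 went the other way, at -0.23 in KI, which did not pass (limma adjusted p = 0.0671), and -0.31 in WT (limma adjusted p = 0.0197). Among arrays 24 to 27 these values were -0.51 in KI and -0.21 in WT, and the WT call was lost on leaving out WT Treg 1 or WT Tconv 1. Ccdc22 itself gave -0.0015 in KI (interval -0.24 to 0.24) and 0.24 in WT (interval -0.0022 to 0.48), neither past the threshold. The shared set 1455805_PM_x_at differed by -0.35 between KI Tregs and KI Tconv, lower in Tregs (limma adjusted p = 0.00889), and by -0.05 in WT. Of the 16 other probe sets of the region, 4 were higher and 2 lower in Tregs in each genotype, Gata1 among the higher ones at 1.46 in KI and 1.37 in WT, chosen after its values were seen.

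**Figure D3:**
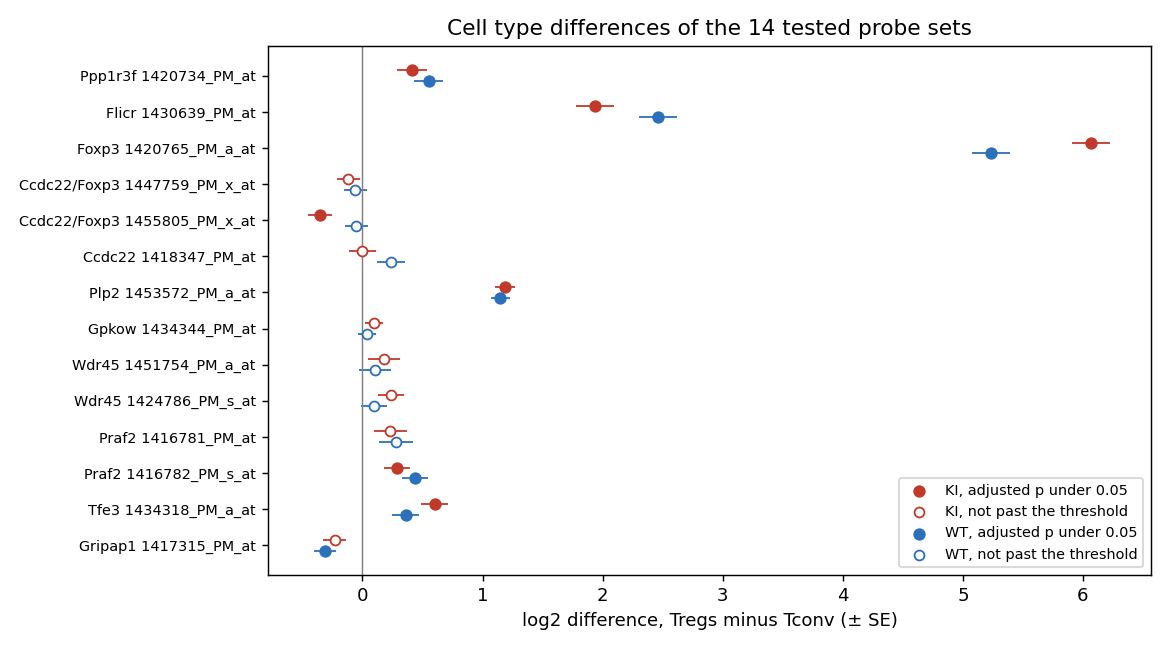
Treg minus Tconv log2 difference (horizontal axis, bars ± SE, 4 arrays per group) of the 14 tested member probe sets in KI and WT (vertical axis, in the order of the genes along the X chromosome). Filled points passed an adjusted p of 0.05; Foxp3 stands apart at 6.07 and 5.23, followed by Flicr at 1.94 and 2.46 and Plp2 at 1.19 and 1.15, and the other sets lie between -0.35 and 0.60.

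The probe sets most like Foxp3 over the 16 arrays, by Pearson r among 12915 tested probe sets of a single gene, were Nrp1 (0.996), Ikzf2 (0.996), Cd200 (0.995), Tiam1 (0.994) and Gbp2b (0.994). Such an r mostly measures the gap between Tregs and Tconv, since the arrays fall into these clusters. Nrp1 is a semaphorin coreceptor and Ikzf2 a zinc finger factor, both used as markers of thymus-derived Tregs. Among the neighbours the r with Foxp3 was 0.98 for Plp2, 0.97 for Flicr, 0.86 for Tfe3, -0.74 for Gripap1 and 0.20 for Ccdc22. Most like Ccdc22 were 3830406C13Rik (0.947), the paraoxonase gene Pon2 with 2 probe sets (0.873 and 0.832), the transporter gene Abcg2 (0.793) and Ubash3a (0.770), a regulator of T cell receptor signals. Here the arrays fall into clusters by genotype. None of the 5 probe sets named for either gene belongs to a gene on the X chromosome in the RefSeq table. Among the neighbours the r with Ccdc22 was 0.79 for Ppp1r3f and 0.75 for Gpkow.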

How the data were processed

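The deposited table gives a log2 expression value for each probe set and array, computed by the authors in Partek 6.5 by RMA, per the submitters' processing notes. Its options and the genome build were not given in the sources used here. RMA corrects background, equalises the arrays' distributions and summarises each probe set, so values near background are compressed. Genes were named from the platform annotation with symbols updated by Entrez ID (28898 probe sets had 1 gene, 551 several and 15588 none). Groups came from the labels. Replicate numbers follow accession order. No pair of arrays held identical values, and arrays of a group correlated at 0.965 to 0.996. Precision is limited by 4 arrays per group.

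The fit used limma 3.58.1 in R 4.3.3 (1 mean per group, moderated variance with trend), checked on simulated data. Alternatives were other filters, no variance trend, only the groups compared, cyclic loess, 1 probe set per gene, 2 or 3 blocks of array numbers, omission of arrays 24 to 27 and of each array in turn. Members, marker lists and tests were chosen with earlier results of these data known. Each member probe set is accounted for, with values per array for Foxp3 and for members that passed between genotypes. Per-array values of Flicr, 1447759_PM_x_at, Gpkow, Plp2 and Tfe3 were added after their values were seen. Of the 10 marker lists, those for T cells, Tregs and B cells are reported in the text and the others under other observations.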

Additional observations from a re-analysis of the deposited data

Results flagged for a closer look

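In 4 of 60 member probe sets by group, the most extreme of the 4 arrays stood farther from the rest than Dixon's 95% critical value allows. Chance gives about 1 in 20 such cases. Ccdc22 (1418347_PM_at) was low in KI Tconv 1, at 7.95 against 8.32 to 8.36 in the other KI Tconv arrays, and in WT Tconv 1, at 8.89 against 9.20 to 9.24 in the other WT Tconv arrays. Without KI Tconv 1, and without WT Tconv 1, Ccdc22 kept its call between KI and WT Tconv. Wdr45 (1451754_PM_a_at) was high in WT Treg 2, at 7.30, while the other WT Treg arrays read 7.24 each. Praf2 (1416782_PM_s_at) was low in KI Tconv 1, at 6.29 against 6.56 to 6.57 in the other KI Tconv arrays, and without that array its difference between KI Tregs and KI Tconv was 0.22 (limma adjusted p = 0.147).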

How the results depend on the processing

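Over 70 member results and 26 other settings, 1790 values were computed. Of these, 1701 kept their side of the threshold or, untested, moved by less than the square root of 2 times the SE of the main fit. A further 32 lost a call, 17 gained one, 39 untested values moved further and 1 reversed. The reversed value was Praf2 1416782_PM_s_at between KI Tregs and KI Tconv within the arrays numbered 24 to 27 (-0.0525 against 0.29). In 58 values, of results with no call under either setting, the sign changed. Among all tested probe sets, the count between KI and WT Tregs was 282, and became 174 with only the groups compared, 567 with 2 blocks of array numbers, 43 with 3 blocks and 1077 without the arrays numbered 24 to 27. Between KI and WT Tconv it was 18, and became 11 with only the groups compared or with 1 probe set per gene, 4 with 3 blocks and 319 without arrays 24 to 27. With 3 blocks the member count in Tconv was 0 instead of 3 and in Tregs 2 instead of 3. With 1 probe set per gene, which tests fewer probe sets, the counts between cell types were 3343 instead of 6806 in KI and 2818 instead of 5373 in WT. The interaction count of 69 became 112 with 2 blocks and 122 with 3. Leaving out 1 array gave 116 to 1039 between KI and WT Tregs (1039 without KI Treg 4), 8 to 120 between KI and WT Tconv (120 without KI Tconv 4), 5632 to 6842 between the cell types in KI, 4544 to 5758 in WT and 41 to 128 for the interaction. The member counts then were 3 to 4, 2 to 4, 5 to 8, 6 to 7 and 0 to 0, in the same order. In all 16 single omissions Ccdc22 and 1455805_PM_x_at kept their genotype calls in both cell types, and Ppp1r3f in Tregs. No paired analysis was possible because the labels give no replicate numbers and those used here follow accession order. Where a setting moved a result, the cause was not tested. With 3 blocks, the genotype difference averaged over the cell types rests on arrays 24 to 27, 1 array per group. The difference between cell types still uses all 16 arrays there.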

Other observations

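Other cell types' markers, as the mean log2 value of each list, overlapped between KI and WT within each cell type. CD8 T cell markers lay at 5.85 to 6.26 in KI Tregs, 6.11 to 6.45 in WT Tregs, 5.18 to 5.61 in KI Tconv and 4.80 to 5.19 in WT Tconv. Neutrophil markers ran from 4.85 to 7.67 in KI Tregs, 3.34 to 7.58 in WT Tregs, 3.86 to 6.61 in KI Tconv and 4.45 to 6.87 in WT Tconv, erythroid markers from 4.85 to 7.78 and monocyte and macrophage markers from 3.79 to 6.31 over all arrays. Plasma cell markers ran from 2.48 to 6.04, dendritic cell markers from 4.39 to 4.98 and NK cell markers from 3.72 to 4.86. Their part in the member results was not tested.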
